A study of Mus musculus with 6 samples.

Results

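The imprinted gene loci described here are 10 genes named for parent-of-origin expression: H19, Igf2, Kcnq1, Cdkn1c, Dlk1, Meg3, Peg3, Mest, Igf2r and Snrpn. They were chosen by name, out of 47042 RefSeq genes placed on the autosomes, and their selection rule uses no measured value, although earlier results of these data were known when they were picked. The stretch within 500 kb of each gene was taken as its window. Windows that overlapped were joined, which left 6 windows with 155 of the 47717 bins of 50 kb that had a subcompartment in every library. Chromatin loops were counted where an anchor lay within 200 kb of a gene, and these were 13 of 5903 loops in the control list, 12 of 6013 in the Brg1KD list and 12 of 5475 in the Ino80KD list.

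Chromatin contacts of E14TG2a (E14) cells had been recorded by Hi-C, an assay that joins and sequences DNA pieces which touch inside the nucleus. E14 is a wild-type mouse embryonic stem cell line from a male embryo. All cells were transfected with esiRNA, a mixture of short interfering RNAs, and collected 48 h later. The control group received esiRNA against EGFP, a sequence from a plasmid, the Brg1KD group received esiRNA against Smarca4, and the Ino80KD group received esiRNA against Ino80. Smarca4 encodes Brg1, the motor subunit of the esBAF chromatin remodeller, and Ino80 encodes the motor subunit of the INO80 remodeller. Each group had 2 libraries, replicate 1 from batch 1 and replicate 2 from batch 2. Nothing in the labels says that replicates were separate cultures, so tests measure only the spread between these libraries, which may be technical. The files hold neither RNA nor protein, so how far Brg1 or Ino80 was depleted is not known, and they hold no read numbers, so depth is unknown. The labels describe no separation of the parental copies, so each label stands for both parental chromosomes together.

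Imprinted genes are expressed from a single parental chromosome, chosen by DNA methylation that is set in the egg or sperm and kept after fertilisation. They lie in clusters, each governed by an imprinting control region, and several clusters hold a long non-coding RNA expressed from the opposite parental copy to the protein-coding genes. At H19 and Igf2, the insulator protein CTCF binds the unmethylated maternal control region and keeps enhancers from reaching Igf2. Among the members, Igf2, Dlk1, Peg3, Mest and Snrpn are known as paternally expressed, and H19, Kcnq1, Cdkn1c, Meg3 and Igf2r as maternally expressed, in tissues where they are imprinted.

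Each library carries 1 of 8 subcompartment labels per stretch, in the order A.1.1 (gene-rich and active chromatin), A.1.2, A.2.1, A.2.2, B.1.1, B.1.2, B.2.1 and B.2.2 (gene-poor and inactive chromatin). The labels were read as ranks from 8 down to 1, and a step of 1 rank is called 1 class, positive towards A. Over the genome, the mean rank was 3.99 and 3.98 in the control libraries, 3.91 and 3.89 in Brg1KD and 3.92 and 3.89 in Ino80KD. The imprinted windows carried the same label in all 6 libraries in 33.5% of bins, next to 33.8% of bins genome-wide. Neighbouring bins share deposited segments, so bins of a window are not independent of each other.

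At their midpoint bins the member genes spanned most of the A to B range, and 3 of them held 1 label there in every library. Igf2 (chr7:142650768-142666816, mm10), the fetal growth factor, and H19 (chr7:142575530-142578146), the non-coding RNA beside it, lay in A.2.2 in all 6 libraries. The bin at the midpoint of Kcnq1 (chr7:143106877-143427050), a potassium channel gene that is host to the imprinting control RNA Kcnq1ot1, was B.1.1 in all 6. These constant patterns were common: 285 of 20375 placed protein-coding genes had the same 6 labels as H19, 284 as Igf2 and 239 as Kcnq1. Cdkn1c (chr7:143458339-143461059), an inhibitor of cyclin-dependent kinases, was in A.1.2 in 5 libraries and in A.1.1 in Brg1KD replicate 2. It was the most A-like member, and its pattern was shared by 217 protein-coding genes.

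H19 and Igf2 each hold a microRNA hairpin that sits in these constant A.2.2 bins, and Mest holds another. Their mature RNAs are shown from RefSeq (GRCm38.p6) because they are the sequences these members carry beside their own transcript. Capitals mark the seed, bases 2 to 8, which pairs with target RNAs. H19 yields miR-675 and Igf2 yields miR-483, both on the minus strand, and Mest yields miR-335 on the plus strand. No seed among these 5 was found in any other mature microRNA of the 6 windows.
mmu-miR-675-5p: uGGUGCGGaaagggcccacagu
mmu-miR-675-3p: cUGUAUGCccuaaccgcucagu
mmu-miR-483-5p: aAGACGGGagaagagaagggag
mmu-miR-483-3p: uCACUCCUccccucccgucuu
mmu-miR-335-5p: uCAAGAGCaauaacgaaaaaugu

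The remaining members differed between libraries by 1 or 2 classes. Mest (chr6:30733506-30748466), a gene of the mesoderm with a hydrolase fold, was A.2.1 in control replicate 1 and A.1.2 in control replicate 2. It was A.2.1 and A.1.2 again in Brg1KD and A.2.1 in both Ino80KD libraries, so each knockdown overlapped the controls. Dlk1 (chr12:109452485-109463336), a Notch-like protein that holds back adipocyte differentiation, and Meg3 (chr12:109540996-109571729), a non-coding RNA, had identical labels. Both were A.2.1 in every library other than Brg1KD replicate 1, which had A.2.2. Igf2r (chr17:12682406-12769706), the receptor that clears Igf2 protein, was A.2.2 in both controls. It was A.2.2 and A.2.1 in Brg1KD and B.1.1 and A.2.2 in Ino80KD, and so fell on either side of the A to B boundary in different libraries.

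Peg3 and Snrpn lay in B in every library. Peg3 (chr7:6703892-6730462), a zinc finger protein gene, was B.1.1 in both controls, B.1.2 and B.1.1 in Brg1KD, and B.1.1 and B.1.2 in Ino80KD. The midpoint bin of Snrpn (chr7:59982495-60450177), a splicing factor gene of the Prader-Willi cluster, was B.1.2 in both controls and B.1.1 in both Brg1KD libraries. In Ino80KD it was B.1.2 in replicate 1 and B.1.1 in replicate 2. Snrpn was the only member whose midpoint bin did not overlap between Brg1KD and control, 1 of 10 members, next to 10.3% of all bins. This midpoint difference at Snrpn, 1 class towards A in both batches, did not pass limma's moderated test with Benjamini-Hochberg adjustment over all bins (adjusted p = 0.733). The Snrpn body held both B.2.1 and B.1.2 in the controls, and 3 of its 11 bins did not overlap. None of these 3 bins holds a Snrpn promoter listed in RefSeq (starts at chr7:60005199, 60047978, 60140225 and 60450177). The bins that hold those starts overlapped between Brg1KD and control. Away from its midpoint, Kcnq1 also had 1 of 7 body bins without overlap.

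No midpoint bin of a member passed limma with Benjamini-Hochberg adjustment in Brg1KD, where 4.83% of all bins did, or in Ino80KD, where 3.22% did. The first bin of the Kcnq1 body, away from its midpoint, was called in Brg1KD and is described below. At the midpoint bins, the Brg1KD differences of the other members were -0.5 classes at Dlk1, Meg3 and Peg3, 0.5 at Igf2r and Cdkn1c, and 0 at Mest, H19, Igf2 and Kcnq1. The adjusted p from limma was 0.808 at Dlk1, Meg3 and Cdkn1c and 0.906 at Igf2r and Peg3. In Ino80KD the differences were -0.5 classes at Igf2r, Mest and Peg3, 0.5 at Snrpn and 0 at the remaining 6 members, and no member bin was without overlap, next to 6.25% of all bins. Both knockdown groups were compared with the same control libraries.

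**Figure D1:**
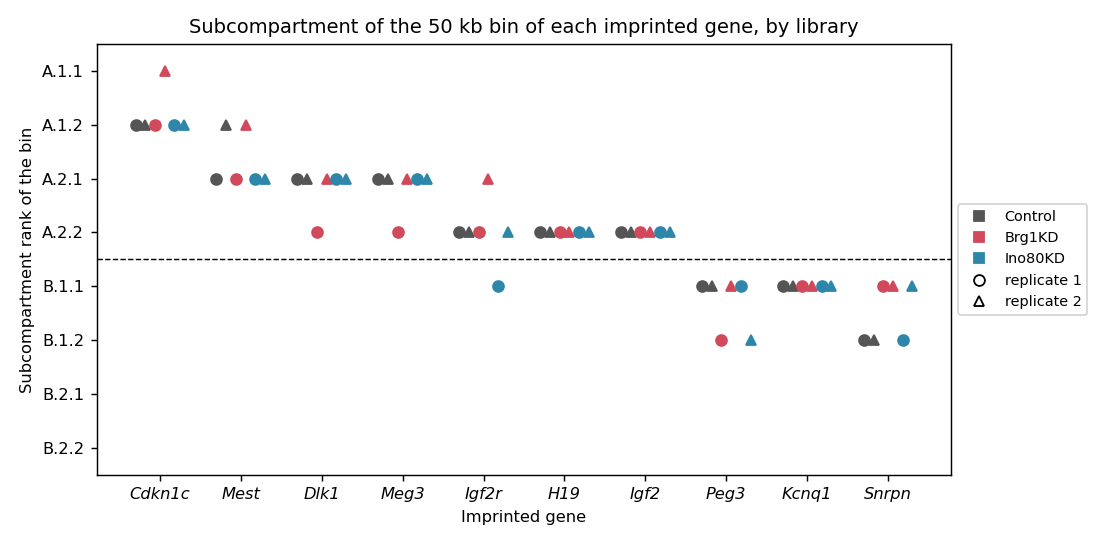
Subcompartment of the 50 kb bin at the midpoint of each member (y axis, rank from B.2.2 to A.1.1) in each of the 6 libraries, with groups in colours, circles for replicate 1 and triangles for replicate 2; the dashed line separates A from B. H19, Igf2 and Kcnq1 lie level in all 6 libraries, and Snrpn is the member whose Brg1KD points both lie above both control points.

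Across the windows around the members, in 22 of 155 window bins (14.2%) both Brg1KD libraries lay beyond both controls, next to 10.3% of all bins. Of these, 13 lay towards A (8.39% of window bins, next to 3.13% of all bins) and 9 towards B (5.81%, next to 7.19%). The 13 and 9 became 108 and 9 when each library's mean rank was subtracted, since this breaks ties between equal labels; the 108 are 69.7% of window bins, next to 60.7% of all bins under that scaling. In Ino80KD, 0 of 155 window bins were without overlap, next to 6.25% of all bins, 1.76% towards A and 4.5% towards B. In the same comparison limma called 0 window bins, next to 0.855% of all bins towards A and 2.37% towards B. At an unadjusted p under 0.05 it also called 0 window bins, next to 1797 of 47717 bins genome-wide. When a shared variance was used, it called 1 window bin (0.645%, next to 0.683% of all bins). Leaving out a library makes the rule of no overlap looser. The Ino80KD share was then 15.5% without control replicate 1 or Ino80KD replicate 1 (next to 15% and 16.3% of all bins), and 3.23% without control replicate 2 or Ino80KD replicate 2 (next to 18.2% and 16.4%).

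limma called 9 of the 155 window bins (5.81%) in Brg1KD, 4 towards A and 5 towards B, next to 4.83% of all bins, 1.53% towards A and 3.3% towards B. All 9 lie in bins where the libraries of each group agree exactly, so no residual spread is left and the p-values are not calibrated. When limma used a shared variance, none of the 9 was called (adjusted p = 0.236 for each), and 3 other window bins were (1.94%, next to 3.4% of all bins). With 1 library left out the share called rose, to 14.8% (control replicate 1 out, next to 10% of all bins), 12.9% (control replicate 2 out, next to 11.5%), 12.3% (Brg1KD replicate 1 out, next to 10.9%) or 17.4% (Brg1KD replicate 2 out, next to 11.2%). Compared directly with Ino80KD, 17 Brg1KD window bins (11%) did not overlap, next to 8.86% of all bins. They were 11 towards A and 6 towards B, next to 4.24% and 4.63% of all bins. limma called 9 (5.81%, next to 3.96%), of which 4 lay towards A and 5 towards B, next to 1.82% and 2.14%. In that comparison too, a shared variance left 0 of the 9 called (adjusted p = 0.269 for each).

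**Figure D2:**
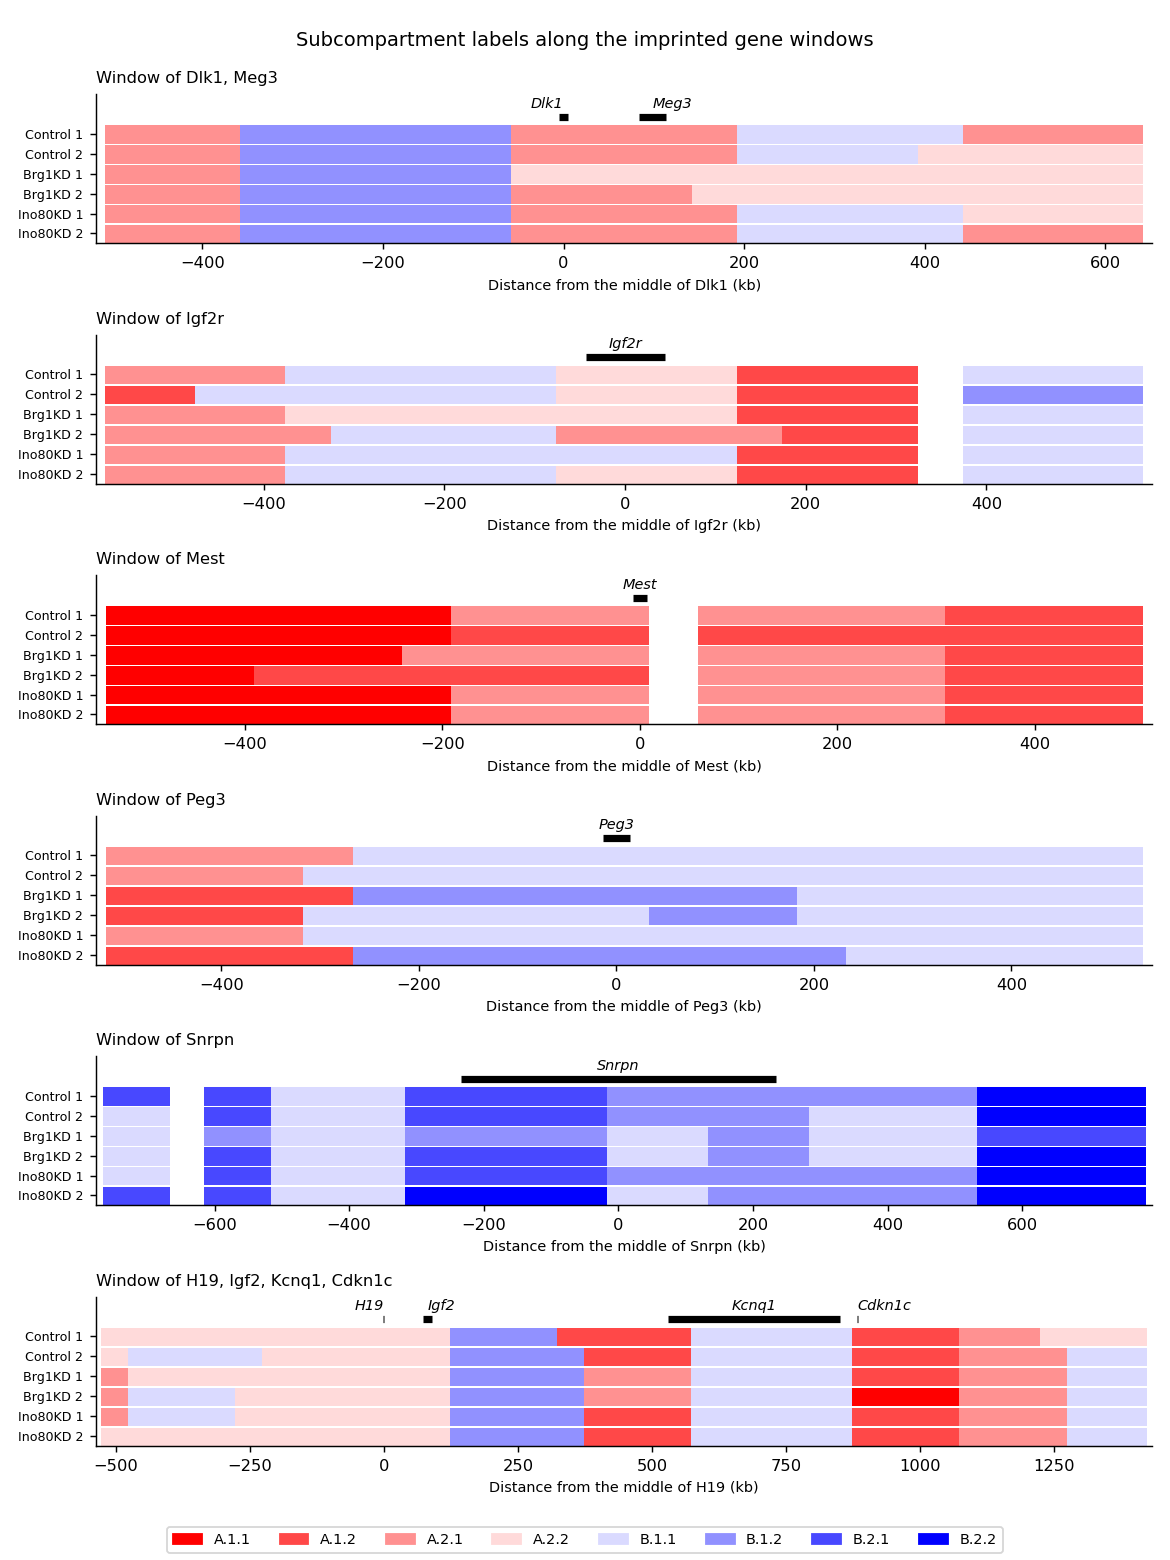
Subcompartment label (colour, red for A and blue for B) along each of the 6 windows, with 1 row per library and the distance in kb from the middle of a member on the x axis; black bars are the members and white gaps are bins without a label in every library. The block to the right of Meg3 is pale blue (B.1.1) in the controls and Ino80KD and pale red (A.2.2) in both Brg1KD libraries, and the block at the left end of Kcnq1 is A.2.1 in the Brg1KD rows and A.1.2 in the other rows.

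In the Dlk1 and Meg3 window the Brg1KD libraries differed from the others on the Meg3 side. The window (chr12:108950001-110100000) had 23 bins and 4 protein-coding genes. In Brg1KD, limma called 5 of its bins (21.7%), next to 4.83% of all bins. These 5 bins adjoin each other, so they are not independent. The bin of Rian (chr12:109600001-109650000), a maternally expressed host RNA of small nucleolar RNAs, was A.2.1 in both controls and both Ino80KD libraries and A.2.2 in both Brg1KD libraries. It moved 1 class towards B (limma, adjusted p = 8e-08, or 0.236 with a shared variance; compared with Ino80KD, 9.78e-08). The next 4 bins (chr12:109650001-109850000), which hold Mirg, a maternally expressed microRNA host, were B.1.1 in both controls and both Ino80KD libraries and A.2.2 in both Brg1KD libraries. They moved 1 class towards A (limma, adjusted p = 8e-08, or 0.236 with a shared variance; compared with Ino80KD, 9.78e-08). With bins of 100 kb the Rian difference was 0 classes (limma, adjusted p = 1), while that of Mirg was again 1 class (2.56e-07). Each 100 kb bin is the mean of its 50 kb bins, and that of Mirg again had no residual spread. The call at 100 kb is therefore no separate check, and its p-value is not calibrated either. At 50 kb, Rian and Mirg had different labels in the controls, A.2.1 and B.1.1, and the same label, A.2.2, in both Brg1KD libraries.

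Together with the Plg bin below, the Mirg bins were the 5 window bins that lay in B in both controls and in A in both Brg1KD libraries, a switch found in 0.451% of all bins. No window bin went the other way, next to 1% of all bins, and in Ino80KD 0 window bins switched either way, next to 0.161% and 0.616% of all bins. The 4 Mirg bins belong to a single block of equal labels in each Brg1KD library. The share of the Dlk1 and Meg3 window in A was 52.2% and 56.5% in the controls, 73.9% in both Brg1KD libraries and 52.2% in both Ino80KD libraries.

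The Mirg block carries most of the microRNAs of the imprinted windows. RefSeq placed 125 mature microRNAs from 67 hairpins in the 6 windows, and 112 of them, from 60 hairpins, in the Dlk1 and Meg3 window. The bins that went from B.1.1 to A.2.2 in Brg1KD held 74 of them, from 40 hairpins, and the Rian bin held 6, from 3 hairpins. The bin of Meg3, which was A.2.2 in Brg1KD replicate 1 only, held 31. Within the block, 7 seeds were each shared by a pair of microRNAs. All 7 pairs lie in the bin starting at chr12:109700001, which was B.1.1 in 4 libraries and A.2.2 in both Brg1KD libraries. As examples, the pairs of 4 of these seeds are shown from RefSeq (GRCm38.p6, plus strand). The seed, bases 2 to 8, is in capitals, and is equal within each pair.
mmu-miR-379-5p: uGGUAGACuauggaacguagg
mmu-miR-1193-5p: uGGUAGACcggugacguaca
mmu-miR-379-3p: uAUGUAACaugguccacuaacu
mmu-miR-411-3p: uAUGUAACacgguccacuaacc
mmu-miR-410-5p: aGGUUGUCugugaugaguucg
mmu-miR-494-5p: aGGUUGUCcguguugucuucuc
mmu-miR-376b-5p: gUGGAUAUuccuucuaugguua
mmu-miR-376c-5p: gUGGAUAUuccuucuauguuua

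For contrast, miR-127, which lies antisense to the retrotransposon-derived gene Rtl1, sits in the Meg3 bin. That bin was A.2.1 in 5 libraries and A.2.2 in Brg1KD replicate 1, and it was not called. Its sequence is shown as the counterpart of the block above.
mmu-miR-127-3p: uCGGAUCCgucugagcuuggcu

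In the window of H19, Igf2, Kcnq1 and Cdkn1c (chr7:142050001-144000000) the called bins lay between Igf2 and Kcnq1. This window had 39 bins and 46 protein-coding genes, and limma called 4 bins in Brg1KD (10.3%, next to 4.83% of all bins). The 4 bins form a run (chr7:142950001-143150000). The run was A.1.2 in both controls and both Ino80KD libraries and A.2.1 in both Brg1KD libraries. It moved 1 class towards B (limma, adjusted p = 8e-08, or 0.236 with a shared variance; compared with Ino80KD, 9.78e-08). The run holds Ascl2, a transcription factor gene needed in the placenta, Tspan32 and Cd81, both tetraspanin genes, and R74862, Tssc4 and Trpm5. With bins of 100 kb Tspan32 and Cd81 were called (limma, adjusted p = 2.56e-07), and Ascl2 was not (-1.5 classes, adjusted p = 0.78; compared with Ino80KD, -0.5 classes, adjusted p = 1). The 100 kb bin of Tspan32 and Cd81 averages the same 50 kb bins and again had no residual spread, so it is no separate check. The run also covers the first 43.1 kb of the Kcnq1 body, so that 1 of the 7 bins of Kcnq1 was without overlap while the other 6, B.1.1 throughout, were equal in all libraries. The bin of Dusp8 at the far edge of the window was A.2.2 in both controls and A.2.1 in both Brg1KD libraries, but it was not called by limma (adjusted p = 0.733). A gene-free bin beside the run (chr7:142900001-142950000) was A.1.2 in control replicate 1 and B.1.2 in the other 5 libraries, so its mean difference of -2 classes in either knockdown rests on that control library.

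In the Snrpn window (chr7:59450001-61000000), all 30 bins were in B in every library, and the highest ranks were those of Brg1KD. The mean rank was 2.47 and 2.77 in the controls, 3.3 and 2.87 in Brg1KD and 2.6 and 2.37 in Ino80KD, so both Brg1KD libraries lay above all others. The difference from control was 0.467 classes, 0.833 in batch 1 and 0.1 in batch 2, and the difference from Ino80KD was 0.6 classes, 0.7 in batch 1 and 0.5 in batch 2. With 2 libraries against 2, an exact two-sided permutation test cannot give a p below 0.333, the value of both comparisons, and after adjustment over the 18 window comparisons it was 1. Within the Snrpn body, 11 bins long, 3 bins (chr7:60200001-60350000) were B.1.2 in both controls and B.1.1 in both Brg1KD libraries. These 3 bins hold no Snrpn promoter listed in RefSeq. A stretch of 5 bins beyond the gene (chr7:60500001-60750000) was B.1.1 in both Brg1KD libraries and B.1.2 in both Ino80KD libraries, with B.1.2 and B.1.1 in the controls. None of these Snrpn bins passed limma (adjusted p = 0.733 and 0.866). The locus is known for arrays of near-identical small nucleolar RNA genes, and how reads were placed there was not tested.

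The Igf2r window (chr17:12150001-13300000) also had its highest mean ranks in Brg1KD. The mean rank was 5.09 and 4.82 in the controls, 5.36 and 5.32 in Brg1KD and 4.91 and 5.09 in Ino80KD, without overlap between Brg1KD and the other groups. The difference from control was 0.386 classes, 0.273 in batch 1 and 0.5 in batch 2 (exact permutation p = 0.333, the smallest possible), and that from Ino80KD was 0.341 classes. A single bin did not overlap, that of Plg, the plasminogen gene (chr17:12350001-12400000). It was B.1.1 in both controls and both Ino80KD libraries and A.2.2 and A.2.1 in Brg1KD, a difference of 1.5 classes (limma, adjusted p = 0.413, or 0.0466 with a shared variance). Only 13.6% of the bins of the Igf2r window had the same label in all 6 libraries, the lowest share of the 6 windows. Slc22a2 and Slc22a3, organic cation transporter genes imprinted in placenta, were A.2.2 in Brg1KD replicate 1 and B.1.1 in the other 5 libraries.

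The Peg3 window (chr7:6200001-7250000) held bins of both directions. The first 4 bins (chr7:6200001-6400000), with Galp and the zinc finger genes Zscan5b, Zfp667, Zfp583, Zfp78 and Zfp28, were A.2.1 in both controls and A.1.2 in both Brg1KD libraries. Within Usp29 (chr7:6730559-6967220), the paternally expressed neighbour of Peg3, 3 bins (chr7:6750001-6900000) were B.1.1 in both controls and B.1.2 in both Brg1KD libraries. The next bin of Usp29 (chr7:6900001-6950000) was B.1.1 in both controls and in both Brg1KD libraries. Ino80KD replicate 2 had the labels of Brg1KD in both runs and Ino80KD replicate 1 those of the controls, so neither run separated the knockdowns. Neither was called by limma (adjusted p = 0.733 for both). In this window the 2 controls agreed in 95.2% of bins and the 2 Ino80KD libraries in 28.6%.

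The Mest window (chr6:30200001-31250000) was in A in every bin of every library. Its mean rank was 6.9 and 7.35 in the controls, 6.8 and 6.9 in Brg1KD and 6.9 in both Ino80KD libraries, so that control replicate 2 stood above the other 5. The only bin without overlap was that of Ssmem1 (chr6:30500001-30550000), which was A.1.1 in both controls and both Ino80KD libraries and A.2.1 and A.1.2 in Brg1KD. The difference there was -1.5 classes (limma, adjusted p = 0.413, or 0.0466 with a shared variance).

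**Figure D3:**
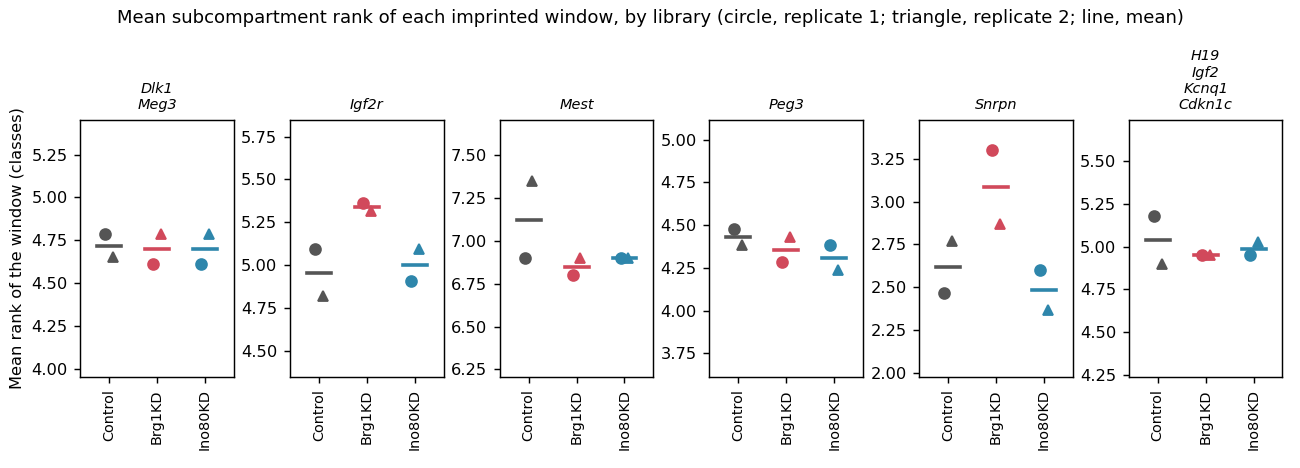
Mean subcompartment rank (y axis, classes, each panel spanning the same height) of the 6 windows in each library, with circles for replicate 1, triangles for replicate 2 and lines for the mean of 2 libraries. In the Igf2r and Snrpn panels both Brg1KD points lie above all control and Ino80KD points, while in the other 4 panels the groups overlap.

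A to B borders were unevenly spread over the imprinted windows. The Mest and Snrpn windows had 0 in every library, the Dlk1 and Meg3 window 1.74 to 3.48 per Mb, and the window of H19, Igf2, Kcnq1 and Cdkn1c 2.05 to 3.59 per Mb. Over the 6 windows together, the libraries had 1.03 to 1.81 borders per Mb, 8 to 14 in all, and 0.669 to 0.715 over all bins; the difference was not tested. The lowest value in the windows, 1.03, was that of Brg1KD replicate 1, and Brg1KD replicate 2 had 1.55, within the range of the controls (1.42 and 1.81) and Ino80KD (1.81 and 1.55). The windows differed in where they lay: Mest was 100% A, Snrpn 0% A and Peg3 19% to 23.8% A.

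Loops were found within 200 kb of 8 of the 10 members in the control list, 8 in the Brg1KD list and 7 in the Ino80KD list. Among 20665 protein-coding genes, 81.2%, 81.1% and 79.2% had such a loop in these lists. Each list is pooled from a group's libraries and gives anchors of 10 kb with no score, so loops have no replicate and no test, and a loop missing from a list may lie just short of the caller's threshold. Snrpn had no loop in any list, with the nearest anchor 1769.8 kb away, and Igf2r had none, with the nearest anchor 302.4 kb away in the control and Brg1KD lists and 312.4 kb in the Ino80KD list. Counting loops whose anchors lay within 20 kb of each other as the same position, the members had 16 loop positions, of which 8 were in all 3 lists.

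Around H19 and Igf2, a loop of 360 kb (chr7:142320001-142690000) joined Ifitm10 to the far side of Igf2 with identical anchors in all 3 lists. A shorter loop of 130 kb joined Mrpl23 (chr7:142530001-142540000) to Igf2 (chr7:142660001-142670000) in the control and Ino80KD lists, with H19 lying between the anchors. In the Brg1KD list the nearest loop ran from chr7:142520001-142530000 to chr7:142670001-142680000, 150 kb long and 10 kb outwards at both ends, where the anchor meets Ins2 and Igf2os and not the Igf2 body, 3.2 kb away. A loop of 230 kb between Syt8 and Tnni2 on one side and Ins2 on the other was in the control and Ino80KD lists and not in the Brg1KD list. The counts near Igf2 were thus 3, 2 and 3 loops in the control, Brg1KD and Ino80KD lists.

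Of the 4 Igf2 promoters in the RefSeq table (GRCm38.p6), 2 lie in the Igf2 anchor of the control and Ino80KD lists. The one at chr7:142661222-142661521 on the minus strand is shown because it is the promoter inside that anchor that carries the hexamer TGCCGC. This is the motif that ZFP57, a zinc finger protein that keeps methylation at imprints, reads when methylated. Capitals mark the match, found on the reverse strand.
Igf2 promoter: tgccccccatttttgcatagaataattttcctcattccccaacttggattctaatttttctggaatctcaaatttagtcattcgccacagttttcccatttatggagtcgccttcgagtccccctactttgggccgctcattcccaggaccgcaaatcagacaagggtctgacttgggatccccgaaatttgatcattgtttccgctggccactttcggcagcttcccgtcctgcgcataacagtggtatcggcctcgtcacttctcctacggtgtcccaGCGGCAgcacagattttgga

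The search covered 300 bases per promoter, 250 before the start and 50 after it, on both strands. The hexamer TGCCGC was in 5 of 16 promoters of 7 members, those of Igf2, Meg3, Mest and Snrpn, with 2 overlapping promoters of Mest counted separately, next to 11.6% of 31396 autosomal promoters. The CTCF core letters AGGGGGC were in 2 of 16, both of Igf2, next to 10.7% of all promoters. Neither of those 2 lies in the loop anchor.

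Around Kcnq1 and Cdkn1c, a loop of 310 kb joined the Kcnq1 body (chr7:143150001-143160000) to Cdkn1c (chr7:143460001-143470000) with identical anchors in all 3 lists. It spans a bin of B.1.1 at the Kcnq1 end and a bin of A.1.2 at the Cdkn1c end, or of A.1.1 in Brg1KD replicate 2. A longer loop, from Trpm5 (chr7:143090001-143100000) to Slc22a18, an imprinted transporter gene, was 390 kb in the control list and 380 kb in the Brg1KD list and was not in the Ino80KD list. Its Trpm5 anchor lies in the run that was A.2.1 in Brg1KD. A loop of 190 kb from Th to Trpm5 was in the Ino80KD list only, and a loop of 610 kb from Kcnq1 (chr7:143130001-143140000) to Osbpl5 was in the Brg1KD list only. Beyond Cdkn1c, a loop of 80 kb from Tnfrsf26 to Osbpl5 was in all 3 lists. A second loop from Tnfrsf26 ended at Osbpl5 in the control list (140 kb) and at Mrgprg in the Ino80KD list (150 kb). It was not in the Brg1KD list. Kcnq1 had 4 loops in every list, and Cdkn1c had 4, 3 and 3 in the control, Brg1KD and Ino80KD lists.

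**Figure D4:**
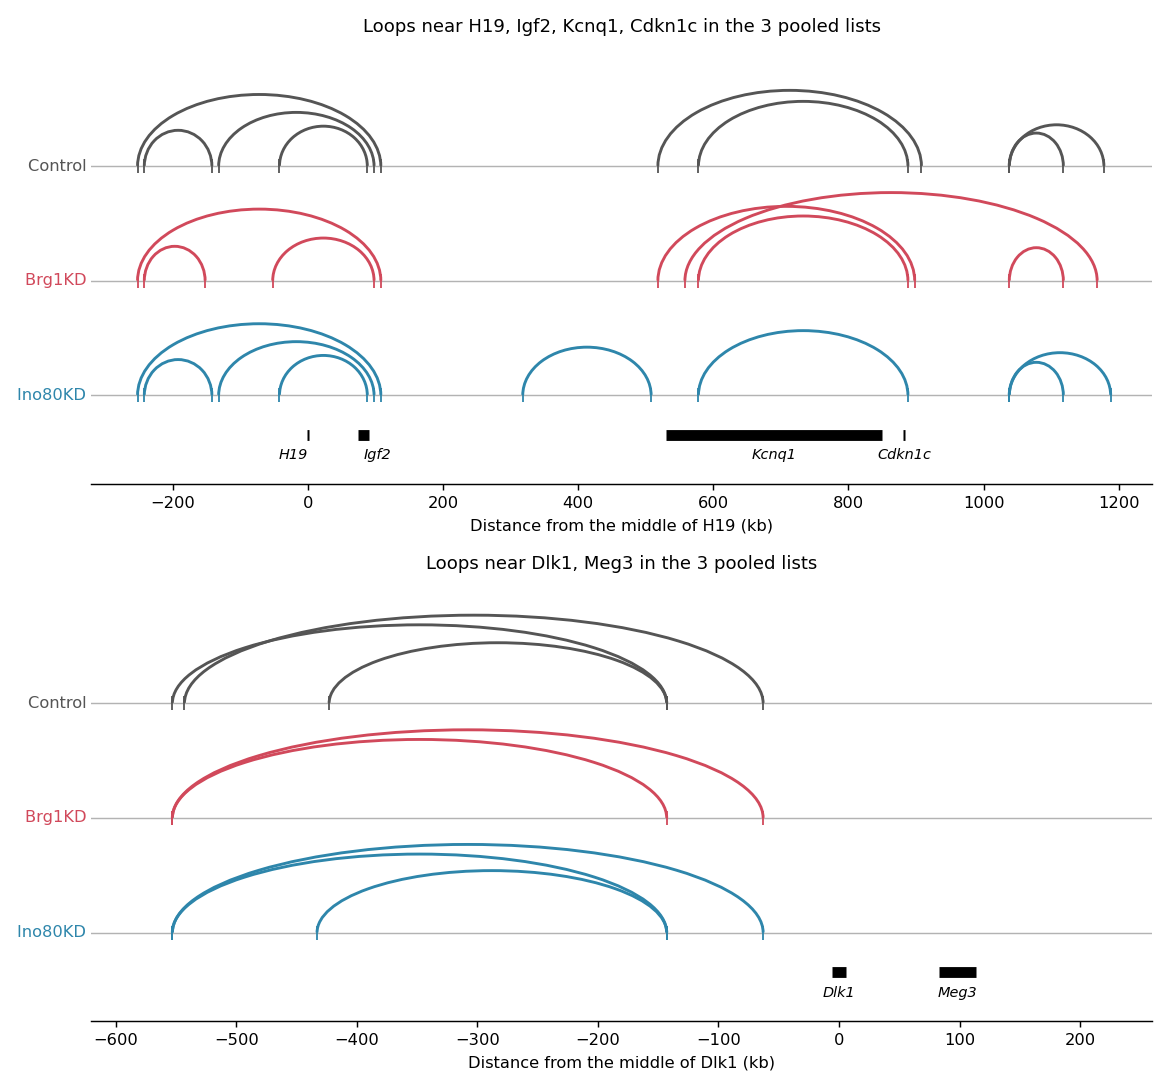
Loops with an anchor within 200 kb of a member in the 3 pooled lists, drawn as arcs between their anchors with the distance in kb from the middle of H19 (top) or Dlk1 (bottom) on the x axis; the height of an arc has no unit and black bars are the genes. The arc of 310 kb from Kcnq1 to Cdkn1c is in all 3 lists, the Brg1KD row lacks the arc of 230 kb that ends beside Igf2, and no anchor lies between Dlk1 and Meg3 in any list.

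Near Dlk1, 2 loops started in Wdr25, ended 52.5 kb or more before the gene and were in all 3 lists. They were 410 kb long, and 480 kb (control) or 490 kb (both knockdowns). A shorter loop of 280 kb in the control list and 290 kb in the Ino80KD list was not in the Brg1KD list. None of these loops had an anchor inside Dlk1 or Meg3. Mest had 1 loop, of 180 to 190 kb, in all 3 lists, and this loop ended 3.5 kb from the gene. Peg3 lay inside a loop from Zim2 to Usp29, 260 kb in the control list and 250 kb in the Brg1KD list. Zim2 and Usp29 are imprinted genes of the same cluster. A second loop, of 100 kb from Smim17 to Olfr1349, was in the Brg1KD list only. The Ino80KD list had no loop at Peg3, with the nearest anchor 533.9 kb away.

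Of the 13 control loops at the members, 4 (30.8%) were in the Brg1KD list with identical anchors, next to 45.7% of all control loops. With anchors allowed to move by 10 kb, 10 of 13 (76.9%) were found, next to 77% of all control loops. In the Ino80KD list 8 of 13 (61.5%) were identical, next to 46.4% of all control loops, and 11 of 13 (84.6%) were found within 10 kb, next to 75.1%.

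Among 54 further imprinted genes taken as a list, 53 had a rank, in 49 bins. In Brg1KD, limma called 1 towards A, Mirg, and 6 towards B, which were Rian, Ascl2, Cd81, Tspan32, Grb10 and Ddc, next to 1.53% and 3.3% of all bins. Ascl2, Cd81 and Tspan32 lie in a single run of equal labels, and Grb10 and Ddc are neighbours, so the 6 are not independent. Of the 33 listed genes outside the 6 windows, in 30 bins, 2 were called, Grb10 and Ddc on chromosome 11, next to 4.83% of all bins. Grb10 encodes an adaptor that restrains insulin and growth factor signalling, and Ddc, its neighbour, an enzyme of dopamine and serotonin synthesis. Both were A.2.1 in the control and Ino80KD libraries and A.2.2 in both Brg1KD libraries, 1 class towards B (limma, adjusted p = 8e-08, or 0.236 with a shared variance). In Ino80KD none of the 53 was called by limma, next to 3.22% of all bins, or was without overlap, next to 6.25%. The median difference of the list was 0 classes in each comparison, as it was over all bins.

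The 19 factors listed for keeping imprints, among them Zfp57, Zfp445, Trim28, Dnmt1, Uhrf1, Ctcf and Smchd1, all had a rank. None was called by limma or was without overlap in any of the 3 comparisons, next to 4.83%, 3.22% and 3.96% of all bins called and 10.3%, 6.25% and 8.86% without overlap in Brg1KD, in Ino80KD and between them. Zfp57, Dnmt1, Uhrf1 and Ctcf were A.1.1 in all 6 libraries, as were most of the 19 factors. A.1.1 is the top class, so bins in it could not move towards A, while the shares of all bins cover every class. Smchd1 was A.1.2 in all 6, and Trim28 was A.1.2 in every library other than Ino80KD replicate 1, which had A.2.1.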

How the data were processed

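The authors deposited, per library, segments with a subcompartment label and a score that gives the label's rank in equal steps within that library, and 1 list of loop anchors per group. The submitters' processing notes name the build mm10 and the tools Juicer 2.0, HOMER, BWA, bedtools and SAMtools, without their roles; the callers of subcompartments and loops are not given in the sources used here. Segments were cut into 50 kb bins, and bins ranked in all 6 libraries were tested under R 4.3.3 by limma (version 3.58.1; a fit over all libraries with eBayes, Benjamini-Hochberg adjustment over all bins and a threshold of 0.05). On simulated ranks this fit also called unshifted bins, and a fit with 1 variance for all bins was used as an alternative. Bins were also counted, without a model, where the ranks of 2 groups did not overlap. Replicate numbers pair the libraries because the labels give them as batches; deviations of same-batch libraries correlated with r = 0.0984 (control, Brg1KD), 0.102 (control, Ino80KD) and 0.0885 (Brg1KD, Ino80KD). Genes were placed by midpoint from RefSeq GRCm38.p6, the assembly of mm10. The genes named are the members, genes of both lists or of the windows in bins that were called or did not overlap, and genes at loop anchors; Slc22a2, Slc22a3, listed factors and the gene-free bin were chosen after their values were seen. Members, lists and tests were chosen with earlier results of these data known. No loop score was given, so loops were compared by position.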

Additional observations from a re-analysis of the deposited data

How the results depend on the processing

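The share of window bins called by limma was 5.81% in Brg1KD, 0% in Ino80KD and 5.81% between the knockdowns, next to 4.83%, 3.22% and 3.96% of all bins. With a variance shared by all bins these were 1.94%, 0.645% and 0%, next to 3.4%, 0.683% and 1.08% of all bins. Bins of 100 kb gave 3.66% in Brg1KD and 3.66% between the knockdowns, next to 4.41% and 3.71% of all bins. Windows of 250 kb gave 9.28% in both, next to 4.83% and 3.96%. With the replicate block the shares were 5.81%, 0% and 5.81%, and the block changed no other call in the windows. Leaving out 1 library gave 12.3% to 17.4% in Brg1KD, 0.645% to 12.9% in Ino80KD and 7.1% to 17.4% between the knockdowns. The share without overlap was 14.2%, 0% and 11%, next to 10.3%, 6.25% and 8.86% of all bins. It became 75.5%, 66.5% and 25.2% with ranks centred per library, which breaks ties by construction, next to 67.9%, 66.3% and 18.8% of all bins. With 1 library left out it was 21.9% to 32.9%, 3.23% to 15.5% and 20% to 25.2%. The shares of all bins were then 19.8% to 22.2%, 15% to 18.2% and 18.3% to 20.3%. Leaving a library out compares 1 library with 2. For the share without overlap, it was an alternative chosen after seeing the data. Loops of the members were 8 in the control list and 7 in the Ino80KD list within 100 kb, and 21, 21 and 22 in the control, Brg1KD and Ino80KD lists within 500 kb. Control loops found in the Brg1KD list were 4 with identical anchors and 10 within 10 kb or 20 kb. The mean difference of the Igf2r window in Brg1KD stayed between 0.25 and 0.523 classes over 7 settings and that of the Snrpn window between 0.25 and 0.683. The small differences of Dlk1 and Meg3, Peg3 and the Kcnq1 window in Brg1KD took the other sign in 4, 2 and 1 of the 7. Depth is unknown, ranks have 8 steps, and loops have no replicate.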
